A study of Mus musculus with 12 samples.

Results

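The Dppa (developmental pluripotency associated) genes described here are Dppa2, Dppa3, Dppa4 and Dppa5a, 4 of the 39017 genes in the table of counts. All 4 passed the filter on low counts that left 17885 genes for testing. They were chosen by name, and the choice drew on measured values of the same libraries. Dppa3 was known to be lower in 2i than in serum in both cell lines, unlike most naive pluripotency genes. For this reason the differences between 2i and serum are given for these genes as a description, without a test. The differences between the lines within a medium did not enter the choice and were tested. The difference of the 2i effects between the lines was tested too, although it is made from the same 2i and serum values that the choice drew on.

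The RNA-seq data comprised 12 libraries of poly(A) RNA from mouse embryonic stem cells (mESCs), 3 replicates for each of J1 in serum, J1 in 2i, 3B3L in serum and 3B3L in 2i. J1 cells are wild-type and male. 3B3L (3B3-3l in the labels) lacks endogenous Dnmt3a and Dnmt3b, the de novo DNA methyltransferases (Dnmt3a-/-, Dnmt3b-/-), and carries Dnmt3b and Dnmt3l transgenes that the constitutive CAG promoter drives. Cells that stably express the Dnmt3l transgene were obtained by blasticidin selection, so that 3B3L is 1 selected line set against 1 wild-type line. The study made 3B3L so that DNA methylation stays high in 2i, and asked with these libraries whether the transcriptome in 2i follows the medium or the methylation state. Serum medium held 15% fetal calf serum with 500 U/ml LIF by the labels. 2i medium held no serum, the MEK inhibitor PD0325901 at 1 µM, the GSK3 inhibitor CHIR99021 at 3 µM and 1000 U/ml LIF. By the study's methods the base medium and its supplements also differed, so that inhibitors, serum and base medium cannot be told apart. The study's methods give serum medium the same LIF dose as the labels give 2i, so whether LIF differed between the media is not settled. In serum, J1 grew on feeder cells that were removed by plating before analysis and 3B3L grew on gelatin, so line and culture surface cannot be told apart in that medium.

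The Dppa genes share a name because their transcripts mark pluripotent cells, not because their proteins are all alike. DPPA2 and DPPA4 are related proteins with a SAP domain that bind DNA as a pair at CpG-rich promoters, and mESCs need both to express Dux, Zscan4 and other genes of the 2-cell embryo. DPPA3, also called Stella or PGC7, is a maternal factor that shields methylated DNA in the zygote from oxidation by TET3, and it keeps UHRF1, the partner of the maintenance methyltransferase DNMT1, away from chromatin. DPPA5A, also called ESG1, is an RNA-binding protein of the KH domain family.

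Libraries held 37050652 to 44515395 estimated reads. Levels are given as estimated reads scaled to a common library size (CPM) where sizes were set by the trimmed mean of M values (TMM). The summed levels of gene lists were instead scaled by the total estimated reads of each library, without TMM. They include listed genes that did not pass the filter. Embryonic stem cell markers were high in every library, and their summed level lay between 4094 and 4804 CPM. Pou5f1, the defining pluripotency factor, had means of 1224 to 1333 CPM in the 4 groups and was called in none of the 5 contrasts of the edgeR quasi-likelihood test. Fibroblast markers, which feeder cells would carry, summed to 64.3 to 68.2 CPM in J1 in serum and to 82 to 96.4 CPM in 3B3L in serum, against 26 to 28.7 CPM in J1 in 2i and 17.7 to 18.3 CPM in 3B3L in 2i. Of these 10 markers, Lum was at 0 in the J1 serum libraries and Lum and Dcn were at 0 in the 2i libraries of both lines. Of the 7 fibroblast markers tested, 6 fell in 2i and 1 rose in J1, and 6 fell and 1 was not called in 3B3L. The exception in both was Pdgfrb, a growth factor receptor of mesenchymal cells. It rose in J1 from 6.31 CPM ± 0.85 to 19.4 CPM ± 0.90, which was most of the sum in J1 in 2i. In 3B3L its mean was 7.39 CPM ± 0.93 with serum and 7.33 CPM ± 0.11 with 2i. The part of these markers in the results was not tested. In such bulk libraries fewer cells that express a gene cannot be told apart from less RNA per cell.

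**Figure D1:**
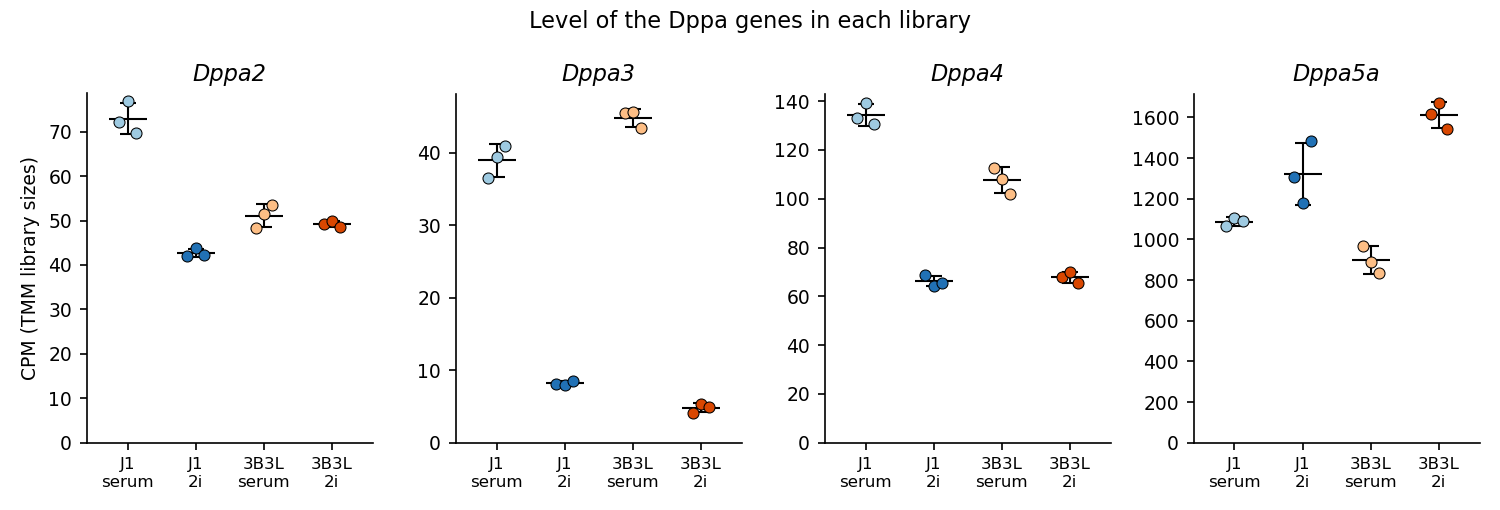
Level of each gene in CPM (vertical axes, each starting at 0) in the 12 libraries, by line and medium. Points are libraries, horizontal bars are group means and error bars are SD (n = 3). Dppa3 lay below 9 CPM in all 6 libraries in 2i and above 36 CPM in all 6 in serum, and Dppa5a was the gene of the 4 that was higher in 2i in both lines.

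Dppa2 (ENSMUSG00000072419) encodes the DPPA2 subunit of the DPPA2 and DPPA4 pair and lies on chromosome 16 of GRCm38 (mm10) at chr16:48310274-48319513. In J1 in serum its level was 72.2, 76.8 and 69.8 CPM in the 3 libraries, with a mean of 73 CPM ± 3.57 (SD, n = 3). J1 in 2i held 42.1, 43.8 and 42.2 CPM, with a mean of 42.7 CPM ± 0.951. All 3 libraries of J1 in 2i lay below all 3 in serum. In 3B3L the media did not separate: the libraries held 48.3, 51.4 and 53.5 CPM in serum (mean 51.1 CPM ± 2.62) and 49.3, 49.8 and 48.5 CPM in 2i (mean 49.2 CPM ± 0.673). Groups in falling order were J1 in serum, 3B3L in serum, 3B3L in 2i and J1 in 2i, and the libraries of the middle pair overlapped. The 2i effect was a log2 fold change of -0.77 ± 0.05 (SE) in J1, a 1.71-fold lower level, and of -0.05 ± 0.05 in 3B3L.

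Dppa4 (ENSMUSG00000058550) encodes the other subunit and lies next to Dppa2 at chr16:48283735-48294292. Its level in J1 was 133, 139 and 131 CPM in serum and 68.6, 64.4 and 65.6 CPM in 2i. The means were 134 CPM ± 4.55 and 66.2 CPM ± 2.15, and the media did not overlap. In 3B3L the libraries held 113, 108 and 102 CPM in serum (mean 108 CPM ± 5.26) and 67.9, 69.9 and 65.4 CPM in 2i (mean 67.7 CPM ± 2.24). Here too every 2i library was lower than every serum library. The 2 lines overlapped in 2i, whereas in serum all 3 libraries of 3B3L lay below those of J1. The 2i effect on the log2 scale was -1.02 ± 0.05 in J1 and -0.67 ± 0.05 in 3B3L, which correspond to 2.03-fold and 1.59-fold lower levels.

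Set against each other per kb of effective transcript length, the 2 subunits were unequal in every library, with Dppa2 below Dppa4. The ratio of Dppa2 to Dppa4 was 0.416 ± 0.00664 (SD, n = 3) in J1 in serum and 0.494 ± 0.0249 in J1 in 2i. It was 0.364 ± 0.0359 in 3B3L in serum, the group with the widest spread, and 0.556 ± 0.00986 in 3B3L in 2i. The libraries in 2i, at 0.469 to 0.565, all lay above the libraries in serum, at 0.328 to 0.423. In 2i the 3 libraries of 3B3L (0.546 to 0.565) lay above the 3 of J1 (0.469 to 0.519), and in serum those of 3B3L (0.328 to 0.4) lay below those of J1 (0.409 to 0.423). Both genes were read mainly from 1 transcript. Dppa2 had 1 transcript model of 1948 bases, and for Dppa4 the longer model, of 1534 bases, held 95.9% to 98.4% of the TPM (the authors' length-scaled transcript abundance) of Dppa4 in all libraries. Its share was 0.71 percentage points lower in 3B3L than in J1 in 2i (two-sided exact permutation test p = 0.4) and 0.96 points lower in serum (p = 0.1, the smallest value that 3 libraries against 3 allow). The shorter model, of 1378 bases, lacks 156 coding bases of the longer form. They are coding bases 204 to 359, counted from the start codon, and are shown here from the GENCODE vM1 transcript because nearly all reads of Dppa4 came from the form that holds them.
Dppa4 longer form: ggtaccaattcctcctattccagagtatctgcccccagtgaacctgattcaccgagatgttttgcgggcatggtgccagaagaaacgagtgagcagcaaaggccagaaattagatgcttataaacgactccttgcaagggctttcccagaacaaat

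Of the 31-base words in the longer Dppa4 transcript, 24.3% also occur in transcripts of Gm5501, another gene model in the same annotation, so a part of the reads of Dppa4 could be split between them by the quantification. The coding sequences of Dppa2 and Dppa4 aligned with 63.6% identity over 797 bases. For the transcript of Dppa2 the share of 31-base words found in other protein-coding genes was 0.365%, and for both transcripts of Dppa3 it was 0.

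Dppa3 (ENSMUSG00000046323), at chr6:122626424-122630271, was the member whose levels spanned the widest range as a fold. J1 in serum held 36.5, 39.4 and 41 CPM (mean 39 CPM ± 2.26) and 3B3L in serum 45.5, 45.6 and 43.4 CPM (mean 44.8 CPM ± 1.27). In 2i the level was 8.09, 7.96 and 8.51 CPM in J1 (mean 8.19 CPM ± 0.287). In 3B3L in 2i it was 4.11, 5.35 and 4.98 CPM (mean 4.81 CPM ± 0.636). No 2 groups overlapped, and the order of the lines was turned between media, with 3B3L highest in serum and lowest in 2i. These levels rest on 1513 to 1909 estimated reads per library in serum, 347 to 355 in J1 in 2i and 171 to 231 in 3B3L in 2i, the shallowest of the 16 sets of gene and group. The log2 fold change of 2i against serum was -2.25 ± 0.08 (SE) in J1, a 4.76-fold lower level. In 3B3L it was -3.22 ± 0.08, a 9.3-fold lower level. Of all genes tested, 5.38% had a lower log2 fold change than Dppa3 in J1 and 3.15% in 3B3L. The 833-base model held 95.9% to 100% of the TPM of the gene in every library, and this share differed by 0.33 percentage points between 3B3L and J1 in 2i (3B3L minus J1) and by -0.35 points in serum (two-sided exact permutation test p = 1 for both).

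Dppa5a (ENSMUSG00000060461), at chr9:78367052-78368199, was the most abundant member. J1 in serum held 1066, 1108 and 1089 CPM (mean 1088 CPM ± 20.7) and J1 in 2i 1308, 1179 and 1483 CPM (mean 1323 CPM ± 153). The lowest library of J1 in 2i was still above the highest in serum, although the spread in J1 in 2i was 11.6% of the mean, against 1.9% in J1 in serum. In 3B3L the libraries held 970, 890 and 835 CPM in serum (mean 898 CPM ± 68.1) and 1619, 1671 and 1545 CPM in 2i (mean 1612 CPM ± 63.5). Groups in falling order were 3B3L in 2i, J1 in 2i, J1 in serum and 3B3L in serum, and no neighbours in this order overlapped. The log2 fold change of 2i against serum was 0.28 ± 0.07 in J1 and 0.84 ± 0.07 in 3B3L, or 1.22-fold and 1.79-fold higher.

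Dppa5a has a near copy, Dppa5b (ENSMUSG00000069620), and the quantification had to split reads between the 2. Their coding sequences in GENCODE vM1, of 357 bases each, differ at 9 bases (97.5% identity). The window of 90 coding bases that holds most of these differences, coding bases 211 to 300, is shown with the 6 differing bases in capitals. Within the coding sequence, reads of the 2 genes can be told apart only where such bases lie. The untranslated parts of the transcripts are not shown.
Dppa5a: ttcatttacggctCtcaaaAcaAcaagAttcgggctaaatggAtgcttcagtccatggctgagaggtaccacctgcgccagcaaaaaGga
Dppa5b: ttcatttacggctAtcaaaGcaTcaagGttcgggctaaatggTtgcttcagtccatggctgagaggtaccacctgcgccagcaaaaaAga

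In GENCODE vM1, 68.1% of the 31-base words of the Dppa5a transcript occur in transcripts of other genes (Dppa5b, Gm10112 or Pigp). The authors' transcript model of Dppa5b was shorter (330 bases) than that of GENCODE vM1 (593 bases). The share of words that Dppa5a shares within the authors' models was therefore not measured. The reads assigned to Dppa5b were few beside the 32414 to 72144 of Dppa5a per library, with 1.08 to 13.7 per library over the 12 libraries. Dppa1, another gene of the name, held 1.01 reads in 1 library of J1 in serum and 0 reads in the other 11, below the floor of 3 counts (0.0684 to 0.0813 CPM).

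Counted per kb of effective length, which allows levels of different genes to be set side by side, Dppa5a stood far above the others in each group, with 2407 CPM per kb in J1 in serum, 2976 in J1 in 2i, 2025 in 3B3L in serum and 3529 in 3B3L in 2i. Dppa4 came next, at 98.5, 48.9, 79.5 and 49.6 CPM per kb in the same order of groups. The lower places were exchanged between media. In serum Dppa3, at 58.8 CPM per kb in J1 and 68.5 in 3B3L, was above Dppa2 at 41 and 28.8. In 2i Dppa3, at 12.5 CPM per kb in J1 and 7.19 in 3B3L, was below Dppa2 at 24.1 and 27.6. The order was the same with the annotated length of the main transcript in place of the effective length.

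**Figure D2:**
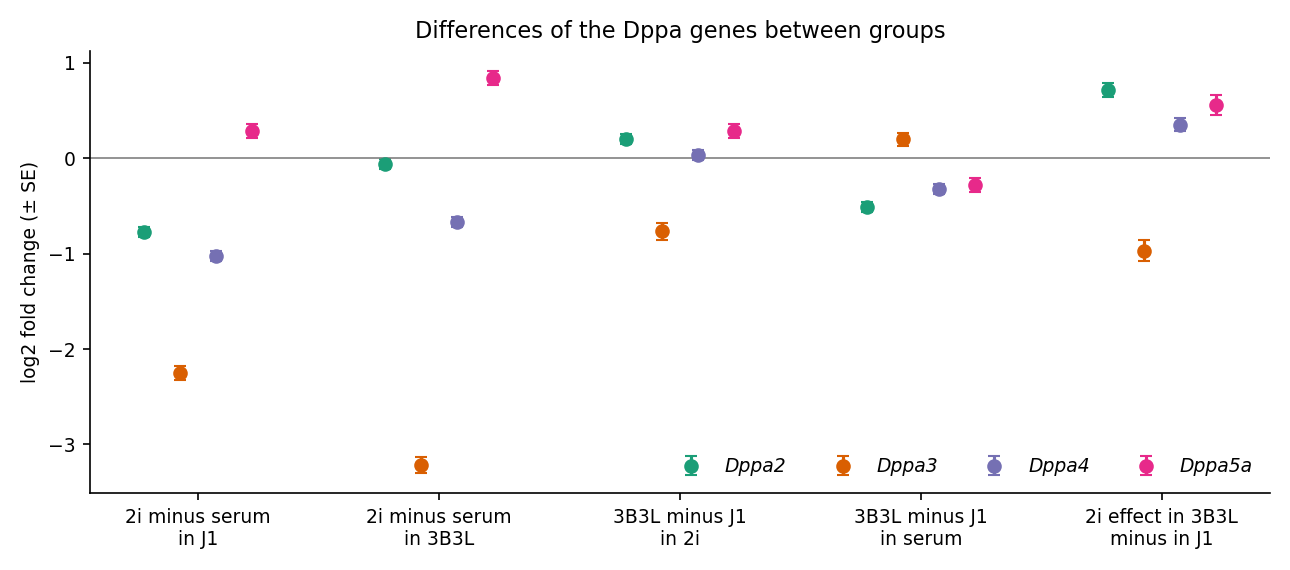
Log2 fold change of each gene (points, with SE as bars) in the 5 contrasts, from the edgeR model of all 12 libraries. Dppa3 has the lowest value in 4 of the contrasts and is the member with a positive value for 3B3L minus J1 in serum, where the other members are below 0.

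By overlap of libraries, 3 of the 4 genes were lower in 2i in J1 and 1 was higher, beside 34% of all tested genes lower and 34.7% higher with no overlap in that contrast. In 3B3L, 2 of the 4 were lower and 1 was higher, beside 34.7% of all tested genes lower and 34.9% higher. These contrasts entered the choice of the genes, and nothing is read from the counts.

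The lines differed in 3 of the 4 genes in 2i. Dppa2 and Dppa5a were higher in 3B3L than in J1 by 0.20 ± 0.05 and 0.28 ± 0.07 on the log2 scale (edgeR quasi-likelihood test, adjusted p = 0.00484 and 0.00464), in 3 of 3 libraries each. Dppa3 was lower in 3B3L in 3 of 3 libraries (log2 fold change -0.77 ± 0.09, adjusted p = 4.22e-06). For Dppa4 the difference was 0.03 ± 0.05 (adjusted p = 0.632). Thus 2 members were called higher and 1 lower in 3B3L in 2i, beside 23% of all genes called higher and 22.9% called lower in this contrast.

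In serum all 4 genes differed between the lines. Dppa2, Dppa4 and Dppa5a were lower in 3B3L in 3 of 3 libraries each, at -0.51 ± 0.05, -0.32 ± 0.05 and -0.28 ± 0.07 on the log2 scale (edgeR adjusted p = 1.73e-06, 0.000121 and 0.00745). Dppa3 was higher by 0.20 ± 0.07 (edgeR adjusted p = 0.0278), and this call was lost when J1 replicate 1 was left out (adjusted p = 0.134) and in 4 other settings. In this contrast 21.5% of all genes were called higher and 17.2% lower. Markers of early lineages also differed between the lines in serum, with 7 of the 11 tested called higher in 3B3L and 0 lower (median 0.61 beside 0.03 for all genes) and a summed level of 171 to 188 CPM in 3B3L against 117 to 119 CPM in J1. Most of the difference between the sums was from Krt8, a keratin gene, with means of 108 CPM in 3B3L and 60.4 CPM in J1. Fgf5, a growth factor of the primed epiblast, had means of 5.2 CPM in 3B3L and 1.55 CPM in J1. In 2i the sums overlapped, at 166 to 175 CPM in 3B3L and 160 to 176 CPM in J1, but single markers differed. Of the 11 tested, 1 was called higher in 3B3L in 2i and 2 lower, beside 23% and 22.9% of all genes. Otx2 was higher (2.27 ± 0.09 on the log2 scale), and T (-0.72 ± 0.13) and Eomes (-0.60 ± 0.07) were lower. The part of these markers in the line differences was not tested. Feeder cells or gelatin went with the line here, so that the surface and the line cannot be told apart.

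The response to 2i itself differed between the lines for all 4 genes, as tested by the difference of the 2i effects. It was 0.72 ± 0.07 on the log2 scale for Dppa2 (edgeR adjusted p = 3.17e-06), whose level was lower in 2i in J1 and overlapped between media in 3B3L. For Dppa4 it was 0.35 ± 0.07 (adjusted p = 0.00133), from a smaller difference between media in 3B3L. For Dppa5a it was 0.56 ± 0.10 (adjusted p = 0.000636), from a larger gain in 3B3L. For Dppa3 it was -0.97 ± 0.11 (adjusted p = 9.31e-06), from a larger loss in 3B3L. Over all genes 34.7% were called in this contrast, 16.3% with a higher and 18.3% with a lower effect in 3B3L. Of the 11 early lineage markers 1 was called higher and 7 lower in the same contrast (4 lower with at least 10 counts in every library). The members were chosen with values of these libraries known, so the 4 of 4 is not independent of that choice.

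Genes that are known to depend on DPPA2 and DPPA4 in mESCs were set beside the pair. Of the 14 genes listed, 9 were in the table and 8 passed the filter. Among the 8, Usp17lc and Nkx2-5 had means of at most 0.69 and 0.36 CPM in any group. In J1, 7 of the 8 fell in 2i and 1 rose (edgeR adjusted p under 0.05), with a median log2 fold change of -2.48 beside 0.01 for all genes, of which 33.2% were called higher and 32.9% lower. In 3B3L, 6 of the 8 fell, 1 rose and 1 was not called, with a median of -0.93 beside 0.01 for all genes, of which 32.7% were called in each direction. Zscan4f, a factor of the 2-cell embryo, fell from 7.26 CPM ± 1.2 (SD, n = 3) to 0.523 CPM ± 0.27 in J1 (log2 fold change -3.79 ± 0.22) and from 9.33 CPM ± 0.49 to 4.55 CPM ± 0.43 in 3B3L (-1.04 ± 0.16). Zscan4c fell too, with log2 fold changes of -3.73 ± 0.15 in J1 and -0.80 ± 0.11 in 3B3L, as did Zscan4d, with -3.04 ± 0.29 and -0.81 ± 0.22. The Zscan4 genes are near-identical copies, so the split of reads among them is uncertain. Dux, the activator of the 2-cell genes, did not pass the filter, with summed estimated reads of 9.5 and 10 over the 3 libraries of J1 and 3B3L in serum, 0 in J1 in 2i and 2.4 in 3B3L in 2i.

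**Figure D3:**
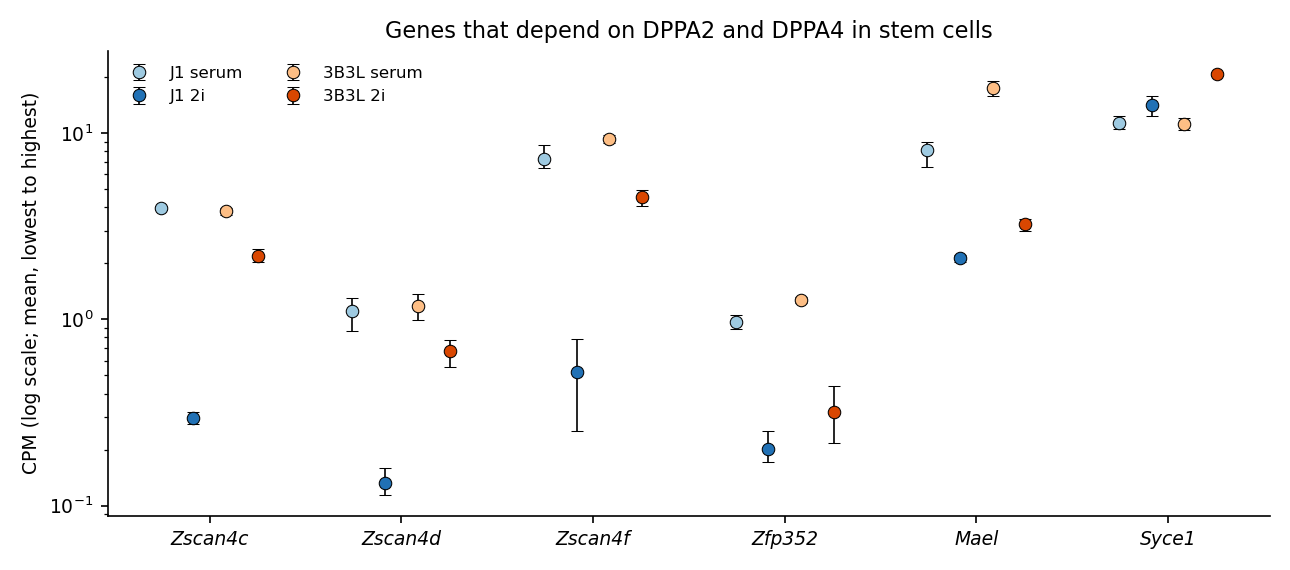
Level in CPM (logarithmic axis) of the genes of the DPPA2 and DPPA4 list that reached 1 CPM in a group. Points are group means and bars run from the lowest to the highest of 3 libraries. The 3 Zscan4 genes lay far lower in J1 in 2i than in 3B3L in 2i, while Zfp352 and Mael were low in 2i in both lines.

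The effect of 2i on this list differed between the lines. The difference of the 2i effects was called higher in 3B3L for 5 of the 8 genes and lower for 1, beside 16.3% and 18.3% of all genes, with a median of 1.40 beside -0.03 for all genes. The 5 included the 3 Zscan4 copies. Usp17lc, also among the 5, had means under 1 CPM in every group. The difference was 2.93 ± 0.19 on the log2 scale for Zscan4c (edgeR adjusted p = 4.45e-08) and 2.76 ± 0.28 for Zscan4f (adjusted p = 2.62e-06). Mael, a germ cell gene of the transposon defence, fell in both lines. Its mean level was 8.16 CPM in serum and 2.15 CPM in 2i in J1, and 17.5 and 3.26 CPM in 3B3L, with a difference of -0.50 ± 0.18 (adjusted p = 0.0402). This call of Mael was lost, and 0 genes of the list were lower, when J1 serum replicate 1, J1 2i replicate 1 or 3, 3B3L serum replicate 2 or 3, or 3B3L 2i replicate 2 or 3 was left out. Zfp352, a 2-cell gene, fell in J1 (-2.24 ± 0.27) and in 3B3L (-1.99 ± 0.24). Syce1, which encodes a protein of the synaptonemal complex, rose by 0.31 ± 0.09 in J1 and by 0.89 ± 0.09 in 3B3L. In 2i, 6 of the 8 genes were higher in 3B3L than in J1 and 0 lower, with a median of 1.48 beside 0.01 for all genes, of which 23% were called higher and 22.9% lower. Of these 6, 3 were the Zscan4 copies named above. In serum 1 of the 8, Mael, was called (1.10 ± 0.11, edgeR adjusted p = 1.15e-06), and with the DESeq2 Wald test 2 were called. Of all genes 21.5% were called higher and 17.2% lower in 3B3L than in J1 in serum. The 2-cell markers as a list, of which all that were measured are also in the list above, summed to 12.8 to 15.9 CPM in J1 in serum, 1.03 to 1.56 CPM in J1 in 2i, 15.7 to 17.6 CPM in 3B3L in serum and 7.24 to 8.7 CPM in 3B3L in 2i. In the same order the mean level of Dppa2 was 73, 42.7, 51.1 and 49.2 CPM and that of Dppa4 134, 66.2, 108 and 67.7 CPM. With at least 10 counts demanded in every library, 3 genes of the list were called lower in J1 and 3 in 3B3L, and 3 had a higher 2i effect in 3B3L.

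The partners of DPPA3 and the genes of DNA demethylation did not move together. Of 9 genes tested in J1, 5 rose in 2i, 3 fell and 1 was not called, with a median log2 fold change of 0.34 beside 0.01 for all genes. In 3B3L, 4 rose, 3 fell and 2 were not called, with a median of -0.10. Of all genes 33.2% were called higher and 32.9% lower in J1, and 32.7% in each direction in 3B3L. Uhrf1, the hemimethylated-DNA reader that DPPA3 acts on, rose from 390 CPM ± 9.8 to 828 CPM ± 17 in J1 (1.09 ± 0.05) and from 448 CPM ± 20 to 894 CPM ± 15 in 3B3L (1.00 ± 0.05), the opposite direction to Dppa3. These are RNA levels, and the paper cites earlier work in which UHRF1 protein was reduced in 2i. Uhrf2, a relative of Uhrf1, fell in J1 (-0.53 ± 0.06), a call lost with transcript length offsets, and in 3B3L (-0.62 ± 0.06). Apobec1, a cytidine deaminase gene beside Dppa3, was raised by 1.15 ± 0.08 in J1 and 0.81 ± 0.08 in 3B3L. Tet2, a methylcytosine dioxygenase, was raised by 0.82 ± 0.08 and 1.03 ± 0.08. Tet1, another such enzyme, fell in J1 (-0.35 ± 0.10) and had -0.10 ± 0.10 in 3B3L. Tet3, the dioxygenase that DPPA3 counters in the zygote, fell in 3B3L from 13.4 CPM ± 1.3 to 6.53 CPM ± 0.26 (-1.03 ± 0.08), whereas in J1 it rose from 13 CPM ± 0.51 to 19.2 CPM ± 0.68 (0.56 ± 0.07). The difference of these effects was -1.59 ± 0.11 (edgeR adjusted p = 5.31e-08), and in this list it was also called for Apobec1 (-0.35 ± 0.12, adjusted p = 0.0305). The remaining 7 genes of the list were not called. Of all genes 16.3% were called higher and 18.3% lower in this contrast. The call of Apobec1 was lost with transcript length offsets and without J1 serum replicate 1, J1 2i replicate 1, 3B3L serum replicate 1 or 3, or 3B3L 2i replicate 1.

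Within 250 kb of Dppa3, a stretch known for several genes of pluripotent cells, lie 10 RefSeq protein-coding genes, of which 9 were tested. In J1, 7 of them rose in 2i, 1 fell and 1 was not called, with a median of 0.95, beside 33.2% of all genes called higher and 32.9% lower. Gdf3, a TGF-beta family ligand 16.3 kb from Dppa3, rose by 0.55 ± 0.06 in J1 and 0.48 ± 0.06 in 3B3L. Nanog, a core pluripotency factor at 77.2 kb, rose by 1.04 ± 0.04 and 0.78 ± 0.04, and Necap1, an endocytosis gene at 244 kb, by 0.60 ± 0.05 and 0.22 ± 0.05. Foxj2, a forkhead factor at 190 kb, fell in J1 (-0.43 ± 0.09) and in 3B3L (-0.67 ± 0.09). In 3B3L the list was mixed, with 4 genes higher, 3 lower and 2 not called (median 0.09), close to the 32.7% of all genes called in each direction. Slc2a3, a glucose transporter at 97.5 kb, was raised in J1 from 1213 to 2350 CPM (0.95 ± 0.06) and fell in 3B3L from 1774 to 1360 CPM (-0.38 ± 0.06). Rimklb, at 139 kb, likewise rose by 1.00 ± 0.05 in J1 and fell in 3B3L (-0.39 ± 0.05). Mfap5, a microfibril gene at 97.1 kb, rose by 1.29 ± 0.13 in J1 and had 0.09 ± 0.15 in 3B3L. The difference of the 2i effects was called lower in 3B3L for 6 of the 9 neighbours and higher for 0 (edgeR adjusted p under 0.05), as it was lower for Dppa3, beside 18.3% and 16.3% of all genes.

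**Figure D4:**
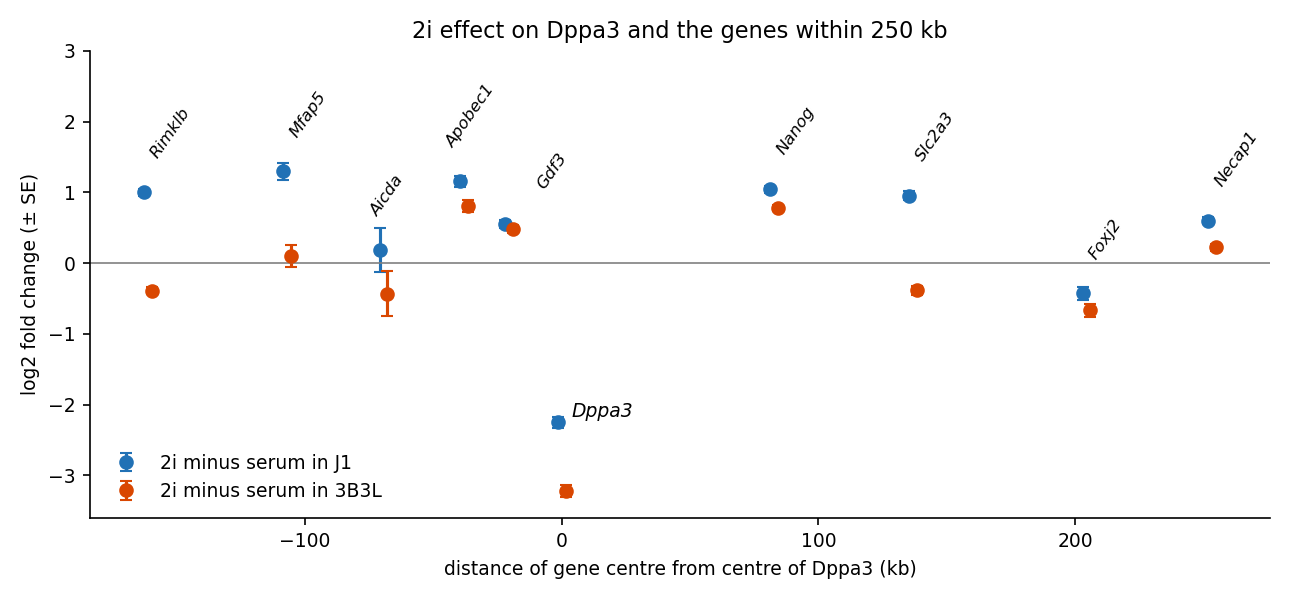
Log2 fold change of 2i against serum (points, with SE as bars) in J1 and in 3B3L for Dppa3 and its 9 tested neighbours, against the distance in kb from the centre of Dppa3. Dppa3 has the lowest value in both lines, and Slc2a3 and Rimklb lie above 0 in J1 and below 0 in 3B3L.

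Morc1, a germ cell gene needed to silence transposons and the one tested neighbour of Dppa2 and Dppa4 (112 kb), rose from 102 CPM ± 2.3 to 136 CPM ± 9.3 in J1 (0.42 ± 0.05) and from 83.5 CPM ± 4.8 to 196 CPM ± 0.67 in 3B3L (1.23 ± 0.06), while Dppa2 and Dppa4 did not have higher levels in 2i in either line. Of 11 tested neighbours of Dppa5a, 7 rose in 2i, 3 fell and 1 was not called in J1, with a median of 0.22. In 3B3L, 7 rose, 2 fell and 2 were not called, with a median of 0.44. Of all genes 33.2% were called higher and 32.9% lower in J1, and 32.7% in each direction in 3B3L. The neighbours that rose in both lines included Gsta2 and Gm10639, whose means were under 1 CPM in every group. Cd109 fell in J1 (-2.61 ± 0.08) and in 3B3L (-0.58 ± 0.07), as did Mto1 (-0.78 ± 0.06 and -0.74 ± 0.06). Ooep, a KH domain relative of Dppa5a at 8.7 kb that is known from the oocyte, rose in 2i, in J1 from a mean of 34.2 to one of 49.5 CPM (0.53 ± 0.07) and in 3B3L from 20.9 to 38.6 CPM (0.89 ± 0.07). Khdc3, another relative of the same protein family, rose in J1 from 23.9 to 68.1 CPM (1.51 ± 0.08) and in 3B3L from 17.2 to 92.8 CPM (2.43 ± 0.08). As for Dppa5a, the rise was larger in 3B3L, by 0.36 ± 0.09 for Ooep (edgeR adjusted p = 0.00847) and by 0.92 ± 0.11 for Khdc3 (adjusted p = 1.01e-05). Khdc1a, Khdc1b and Khdc1c did not pass the filter, so these were the 2 of 5 relatives that could be tested. In serum both relatives were lower in 3B3L than in J1, as Dppa5a was. In 2i they parted, with Khdc3 higher in 3B3L (0.45 ± 0.07, edgeR adjusted p = 9.43e-05), like Dppa5a, and Ooep lower (-0.36 ± 0.07, adjusted p = 0.000328).

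Beside the 16 genes of the naive pluripotency list, which 2i medium is known to raise, the members were spread over the range and beyond it. In J1, 10 of the 16 rose, 4 fell and 2 were not called, with a median of 0.48. In 3B3L, 15 rose, 1 fell and 0 were not called, with a median of 0.78. Of all genes, 33.2% were called higher and 32.9% lower in J1, and 32.7% in each direction in 3B3L. Tbx3 and Tfcp2l1 rose most, by 2.50 ± 0.06 and 2.30 ± 0.07 in J1 and by 2.25 ± 0.06 and 2.44 ± 0.07 in 3B3L. The lowest value of the list belonged in both lines to Nr0b1, at -0.50 ± 0.05 in J1 and -0.40 ± 0.05 in 3B3L. Dppa3 and Dppa4 lay below that value in both lines and Dppa2 in J1, while Dppa5a lay within the range of the list. The choice of the members drew on this contrast of Dppa3 with naive genes, so their places are given as a description, without a test. The difference of the 2i effects was called higher in 3B3L for 11 of the 16 and lower for 2 (1 without J1 2i replicate 1 or 3B3L serum replicate 2). Over all genes 16.3% were called higher and 18.3% lower. The median of the list was 0.42. The difference had the same sign for Dppa2, Dppa4 and Dppa5a and the other sign for Dppa3 (-0.97).

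**Figure D5:**
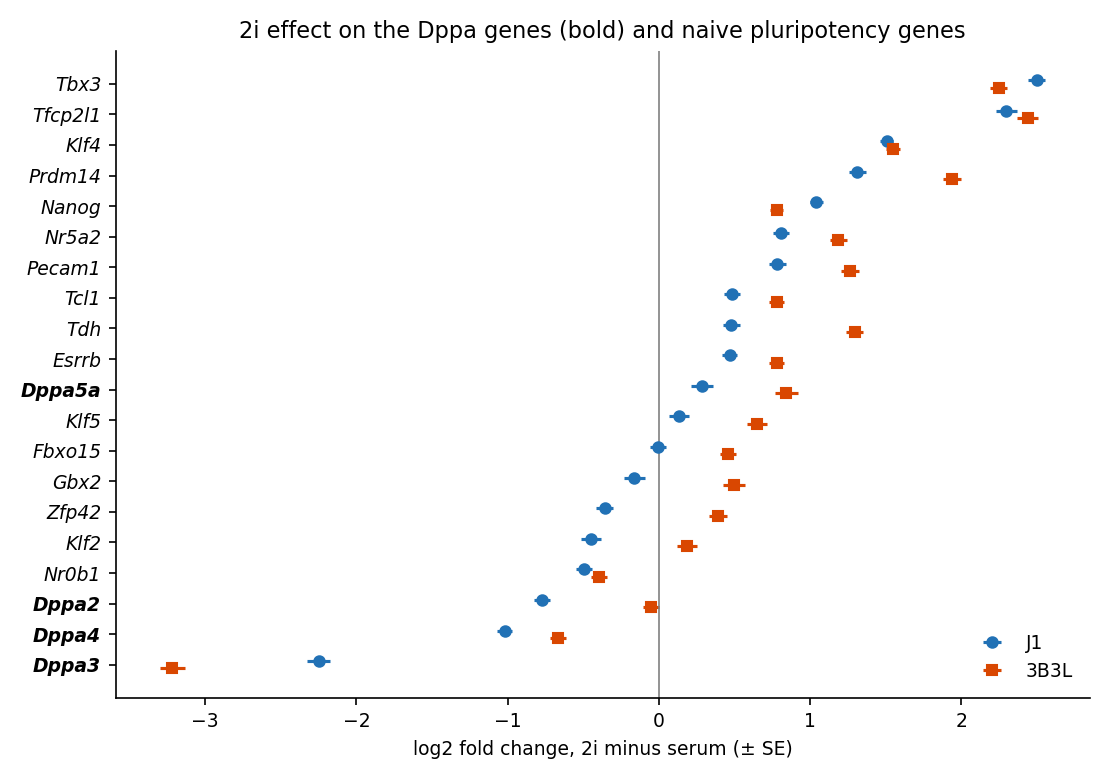
Log2 fold change of 2i against serum (horizontal axis, with SE as bars) for the Dppa genes, in bold, and the naive pluripotency genes, ordered by the value in J1. Circles are J1 and squares are 3B3L. Dppa2, Dppa4 and Dppa3 have the lowest values in J1, and Dppa5a lies among the naive genes. The members were chosen with the fall of Dppa3, unlike most naive genes, already known.

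Dppa3 is also a marker of primordial germ cells. The 10 other germ cell genes that passed the filter went both ways in 2i, with 4 higher, 5 lower and 1 not called in J1 (median -0.10) and 4 higher and 6 lower in 3B3L (median -0.74). Of all genes 33.2% were called higher and 32.9% lower in J1, and 32.7% in each direction in 3B3L. Kit, the receptor of germ cell migration, rose by 2.24 ± 0.06 in J1 and 2.25 ± 0.06 in 3B3L. Dazl, an RNA-binding protein of germ cells, gained 1.34 ± 0.13 in J1 and 1.28 ± 0.12 in 3B3L. Prdm14, shared with the naive list, gained 1.31 ± 0.06 and 1.94 ± 0.06. Prdm1, a specification factor, fell in J1 (-1.54 ± 0.06) and in 3B3L (-1.60 ± 0.07). Ifitm1, an interferon-induced membrane protein, fell in J1 (-1.77 ± 0.07) and in 3B3L (-1.14 ± 0.06), as did Ddx4, an RNA helicase of germ cells (-1.39 ± 0.07 and -1.29 ± 0.07). No tested gene of this list had a 2i effect as low as that of Dppa3.

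Among the 9988 genes whose mean reached 10 CPM in a group, the patterns over the 12 libraries most like each member were found by the root mean square difference of centred log2 CPM. This ranking rests on the same libraries as the levels above and is a description. For Dppa3 the nearest was Kif26a (0.13), at 28.8, 5.24, 32.9 and 3.42 CPM in J1 in serum, J1 in 2i, 3B3L in serum and 3B3L in 2i, followed by Gpr153, D8Ertd82e, Col4a2 and Basp1. For Dppa2 the nearest was Fam3c (0.07), followed by Trp53, Cdkl2, Plekhb1 and Sf3b3. For Dppa4 the nearest was Dock6 (0.08), followed by Pnp, Pja1, Cry1 and Phf21a, and for Dppa5a it was Nubp1 (0.05), followed by Sars2, BC002163, Ndufb9 and Crtap. No member was among the 5 genes nearest to another. Dppa2 ranked 449 for Dppa4 and Dppa4 ranked 1102 for Dppa2, with a difference of 0.24 between them. For Dppa3 the nearest member was Dppa4, at rank 806 (1.01), followed by Dppa2 at rank 1787 (1.24) and Dppa5a at rank 8648 (1.70). Seen from the other members Dppa3 ranked 9365 for Dppa4, 9688 for Dppa2 and 9811 for Dppa5a. For Dppa5a the nearest member was Dppa2, at rank 7670 (0.51).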

How the data were processed

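Poly(A) RNA of 12 mESC libraries (4 groups of 3, grouped by their labels) was analysed. The authors prepared stranded libraries, quantified transcripts with Sailfish against mm10 models and used tximport to sum them to genes. The deposited gene table holds estimated counts that are not scaled by depth or length. They also deposited TPM, estimated counts and effective lengths (another unit, in bases) per transcript. Every per-sample column was used (0 left out). Counts were rounded, filtered by filterByExpr and fitted with edgeR 4.0.16 (R 4.3.3) over all 12 libraries. TMM factors were 0.97 to 1.038 and the biological coefficient of variation was 6.49%. Calls were made where the p adjusted by Benjamini-Hochberg over the 17885 genes was under 0.05. CPM errors are SD and fold change errors are SE. The labels call the replicates biological and do not say what was separate. Libraries shared sequencing pools that the labels do not assign. The floor of 3 counts covers counting error only, since reads carried no molecular identifiers. The members, the 9 gene lists (81 genes, 75 matched) and all tests were chosen with earlier results of these data known. From each list the 2 highest and 2 lowest called genes of at least 1 CPM per contrast were to be named, and neighbours of at least 1 CPM. Some genes outside this rule are named as well, such as Pou5f1, Krt8, Zscan4d, Usp17lc, Nkx2-5, Gsta2 and Gm10639. Positions are from RefSeq GRCm38.p6. Scripts were tested on simulated data. Alternatives were DESeq2 1.42.0 and its size factors, other filters, fits to 6 libraries, the replicate number as a block, length offsets and leaving out each library. Replicate numbers did not pair the libraries (correlations of deviations from -0.12 to 0.02).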

Additional observations from a re-analysis of the deposited data

Results flagged for a closer look

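For all 4 genes the 2i effect differed between J1 and 3B3L, as a test of the difference itself found (edgeR quasi-likelihood test, adjusted over 17885 genes). On the log2 scale the 2i effect in 3B3L minus that in J1 was 0.72 for Dppa2, -0.97 for Dppa3, 0.35 for Dppa4 and 0.56 for Dppa5a, each in the same direction in all 18 alternatives. In this contrast 34.7% of all genes were called. It is made from the 2i and serum values that the choice of the genes drew on. Of the fibroblast markers, 6 of 7 fell in 2i in each line, beside 32.9% of all genes called lower in J1 and 32.7% in 3B3L. Pdgfrb rose in J1 (1.62) and had -0.01 in 3B3L. For the difference of the 2i effects, the fibroblast markers had 2 genes higher, 2 lower and 3 not called. With transcript length offsets 1 was lower. With at least 10 counts in every library, or without J1 2i replicate 2, 1 was higher. The part of the fibroblast markers in the differences was not tested.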

How the results depend on the processing

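Estimates of all 4 genes for 2i against serum kept their direction in all 19 alternatives, as did the tested differences with 1 exception. The difference of Dppa4 between lines in 2i, not called in any alternative, was -0.015 without 3B3L in 2i replicate 2 and ranged from -0.015 to 0.059 when single libraries were left out. The higher level of Dppa3 in 3B3L in serum was no longer called without a filter on low counts (0.18, edgeR adjusted p = 0.0616). With single libraries left out it ranged from 0.16 to 0.24, and the call was lost without J1 serum replicate 1 (0.16) or 2 (0.21) and without 3B3L serum replicate 1 (0.19) or 2 (0.19). Over all 19 alternatives its adjusted p ran from 0.0135 to 0.134, and the cause was not tested. With the replicate block it was 0.20 (adjusted p = 0.0355), and the block changed no call of the 4 genes. The numbers of genes called stayed within 1.5 times the main count in all alternatives, and ran from 5534 to 7406 for 3B3L against J1 in serum. The share of the 833-base Dppa3 transcript in serum (-0.35 points in 3B3L minus J1) was 0.78 points without 3B3L serum replicate 1 and -0.96 points without replicate 3. Of the list counts, 72 of 2256 values moved by over 1.5 times. Levels of Dppa3 in 3B3L in 2i, from 171 to 231 reads per library, are the least precise.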
